A study of Mus musculus with 33 samples.

Results

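The arms of the miR-142 precursor, miR-142-3p and miR-142-5p, were followed in mouse lung after carbon black exposure. They were chosen by name, as the probes annotated mmu-miR-142-3p and mmu-miR-142-5p, and they were 2 of the 650 miRNAs on the array, with 4 of its 1857 probes. The 33 arrays held lung RNA of female C57BL/6 mice, 1 mouse per array, killed on day 1, 3 or 28 after a single dose. Exposed mice were given Printex 90, a nanosized carbon black, at 0.162 mg into the trachea (6 mice on day 1, 4 on day 3 and 5 on day 28). Control mice received the vehicle alone, 0.9% NaCl in water with 10% acellular lavage fluid, which the exposed mice received too (6 mice on each day). Ages are not given in the sources used. No untreated mice were analysed here, so every comparison was with vehicle.

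MicroRNAs are short RNAs cut from a hairpin precursor. Either strand of the stem can be loaded into a silencing complex, where the seed, bases 2 to 8, selects the target mRNAs. miR-142 is transcribed in cells of the blood lineage, and in most other cells it is nearly absent, so that in lung its signal comes chiefly from leukocytes in the tissue and its vessels. In whole lung RNA, fewer such cells and less of the miRNA per cell cannot be told apart.

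The RefSeq sequences of both arms, of the hairpin and of the miRNA on the opposite strand are shown to make plain how the arms differ. The array names were matched to the entries miR-142a-3p and miR-142a-5p through the synonym of the gene Mir142. In build GRCm38.p6 the hairpin lies on the plus strand at chr11:87756864-87756927, the 5p arm at chr11:87756867-87756887 and the 3p arm at chr11:87756903-87756925. Capitals mark the seed in the mature sequences, and both arms in the hairpin.
miR-142-3p: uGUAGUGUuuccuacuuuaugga
miR-142-5p: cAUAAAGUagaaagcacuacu
Mir142 hairpin: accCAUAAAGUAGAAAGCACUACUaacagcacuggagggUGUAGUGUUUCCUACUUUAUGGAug
miR-142b, minus strand, chr11:87756906-87756925: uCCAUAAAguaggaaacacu

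The arms are of 23 (3p) and 21 (5p) bases, and they form 19 base pairs with each other in the folded hairpin of 64 bases. Their seeds differ, and no other mature miRNA of the 1738 in the table has either seed (0 for each arm). Each arm is therefore the only member of its seed family in that table. The opposite strand is annotated with Mir142b, and all 20 bases of its mature miR-142b are the reverse complement of bases of the 3p arm. The longest run of bases that miR-142b shares with the 5p arm is 10.

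Both arms were measured on every array. Each arm had 2 probes with 6 to 10 unflagged spots per array, and 1 of them was taken as the arm's value because it was brighter on average. The spots were well above background in 313 of 313 and 318 of 318 cases for the 3p probes. For the 5p probes this held in 317 of 318 and 317 of 317 cases, and no spot was saturated. The median processed signal over arrays was 986 for the brighter 3p probe and 62.8 for the brighter 5p probe, on the linear scale before scaling between arrays. The median background beside the 5p probe was 25.5. The processed signal already has its background subtracted, so a value under 25.5 is dim and not below background. The probe's processed signal was under 25.5 on control arrays only, with 16.8, 24.3 and 16.2 in replicates 1, 24 and 27 of day 1. On those arrays 9 of 10, 10 of 10 and 8 of 8 of its spots were well above background. Replicate 2 of control day 3 had 19.7, and the lowest exposed array had 34.3. Brightness depends on the probe, so these values do not rank the abundance of the arms.

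The probes of an arm moved together from array to array. Their correlation was r = 0.97 for 3p and r = 0.99 for 5p, over 33 arrays that both probes share. On the log2 scale, the exposed minus control differences of the 3p probes were 0.51 and 0.50 on day 1, 0.016 and 0.012 on day 3, and 0.35 and 0.25 on day 28. Those of the 5p probes were 0.43 and 0.44 on day 1, -0.19 and -0.15 on day 3, and 0.15 and 0.21 on day 28. The probes of each arm had the same sign on each day. They differed in offset on 1 slide: the brighter 3p probe lay 2.10 to 2.44 above the other on the 4 arrays of slide 1, against 1.33 to 1.85 on the 29 arrays of the other slides. For 5p the same difference was -0.0039 to 0.15 on slide 1 and -0.17 to 0.12 elsewhere.

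**Figure D1:**
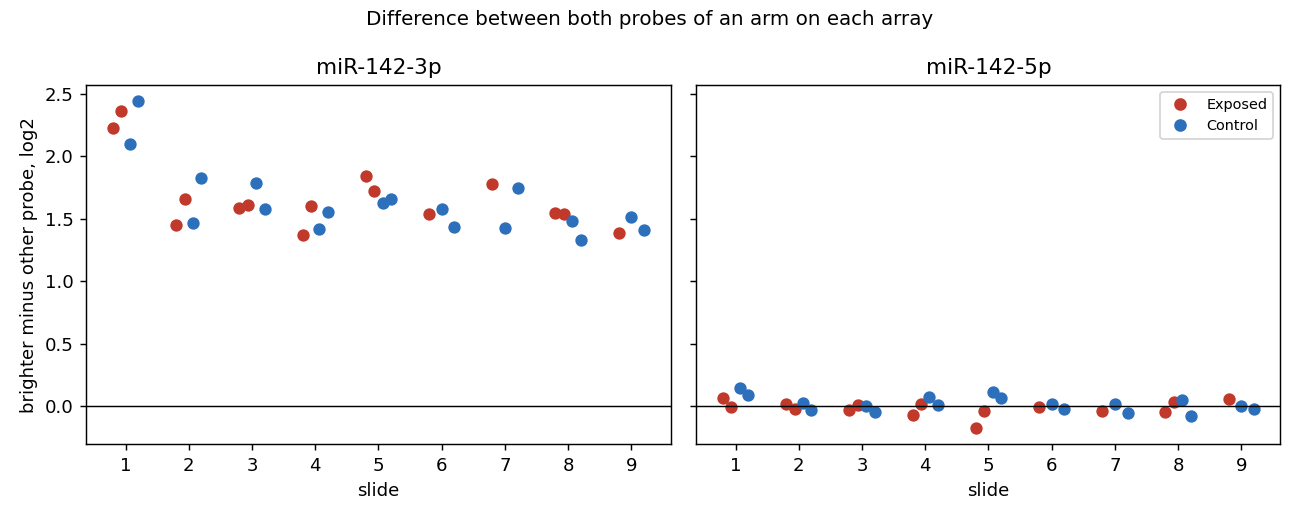
Difference between the log2 scaled signals of the brighter and the other probe of miR-142-3p (left) and miR-142-5p (right) on each array, by slide, with exposed arrays in red and control arrays in blue. The 4 arrays of slide 1 stand above the other 29 arrays for miR-142-3p, and not for miR-142-5p.

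The 33 arrays lay on 9 slides scanned on 5 days. Exposed arrays took positions 3 and 4 and control arrays positions 1 and 2 of each slide, and these 2 factors cannot be told apart. Between 99 and 193 of the 611 mouse miRNAs were above background per array, and the 75th percentile used for scaling ran from 187 to 1211. Slide 1, with 1 array each of the exposed and control groups of days 1 and 3, stood apart for these miRNAs. Its array was the lowest of its group for miR-142-3p in 4 of 4 groups, and for miR-142-5p in 3 of 4, the exposed day 3 group being the exception. Of the lung cell markers, 2 of 2 endothelial, 5 of 5 epithelial and 3 of 3 fibroblast miRNAs passed the filter on dim signals. So did 3 of 4 ciliated and 1 of 2 smooth muscle miRNAs. The ciliated miR-34b-3p was above background on no array, and the smooth muscle miR-145 on 1 of 6 control arrays of day 28 only. The brain miRNAs miR-124 and miR-9 were above background on no array. Markers of other tissues passed the filter too: 3 of 3 miRNAs of heart and skeletal muscle, and miR-122 of liver. miR-122 was above background on 4 of 6 exposed and 3 of 6 control arrays of day 1, on 2 of 4 exposed and 4 of 6 control arrays of day 3, and on 3 of 5 exposed and 5 of 6 control arrays of day 28. The part of these tissues in the values of the arms was not tested.

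On day 1 both arms were higher on average in exposed lungs, by about the size of the spread within groups, and neither difference passed the test. miR-142-3p had a lowest, median and highest log2 scaled signal of 9.10, 10.12 and 10.53 in the 6 exposed lungs. In the 6 control lungs these were 8.12, 9.50 and 10.46. The groups overlapped nearly over the whole exposed range, and the lowest lung of each group was the one on slide 1. miR-142-3p averaged 10.05 ± 0.51 in exposed and 9.53 ± 0.85 in control lungs (SD, n = 6 each), a difference of 0.51 ± 0.31 (SE, 95% interval -0.11 to 1.14, limma adjusted p = 0.487).

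miR-142-5p had a lowest, median and highest log2 scaled signal of 5.53, 6.04 and 6.51 in exposed lungs, and of 4.80, 5.62 and 6.16 in control lungs. Here too the ranges overlapped, although both ends of the exposed range lay above those of the controls. The arm averaged 6.04 ± 0.35 in exposed and 5.61 ± 0.48 in control lungs (SD, n = 6 each), a difference of 0.43 ± 0.21 (SE, 95% interval -0.0025 to 0.86, limma adjusted p = 0.485, unadjusted p = 0.0513). Of the 172 miRNAs tested on day 1 limma called 0% at an adjusted p under 0.05, and 16 (9.30%) had an unadjusted p under 0.05, neither arm among them. The median difference over all 172 was -0.097, and by size of difference the arms ranked 13 (3p) and 16 (5p) from the most positive.

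On day 3 the arms did not have the same sign, and both differences were small beside their errors. miR-142-3p measured 9.12, 9.87, 10.09 and 10.11 in the 4 exposed lungs, against a lowest, median and highest of 8.69, 9.94 and 10.20 in the 6 control lungs. All exposed values lay inside the control range. The arm averaged 9.80 ± 0.46 in exposed (SD, n = 4) and 9.78 ± 0.56 in control lungs (SD, n = 6), a difference of 0.016 ± 0.34 (SE, 95% interval -0.69 to 0.72, limma adjusted p = 0.996). Without the control array on slide 1 the difference turned to -0.20, and leaving out 1 of the exposed arrays other than that on slide 1 turned it to between -0.0072 and -0.088.

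miR-142-5p measured 5.73, 5.82, 5.85 and 5.95 in exposed lungs on day 3, the narrowest group of all. In control lungs its lowest, median and highest values were 5.27, 6.06 and 6.61. All exposed lungs lay below the control median. The arm averaged 5.84 ± 0.091 in exposed (SD, n = 4) and 6.02 ± 0.44 in control lungs (SD, n = 6), a difference of -0.19 ± 0.24 (SE, 95% interval -0.67 to 0.30, limma adjusted p = 0.996). On this day limma called 0% of the 172 miRNAs, and 2 (1.16%) had an unadjusted p under 0.05, neither of them an arm of miR-142.

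On day 28 the exposed lungs split in the scaled signal, for both arms alike. miR-142-3p measured 9.44, 9.63, 10.34, 10.43 and 10.68 in the 5 exposed lungs, against a lowest, median and highest of 9.50, 9.77 and 10.04 in the 6 control lungs. Thus 3 exposed lungs lay above every control lung, 1 lay inside the control range and 1 below it. These places depended on the scaling. Before it, the brighter probe read 798 to 1859 in control lungs. It read 2263, 533, 1184, 986 and 994 in exposed replicates 8, 12, 20, 23 and 30. The arm averaged 10.11 ± 0.54 in exposed (SD, n = 5) and 9.76 ± 0.22 in control lungs (SD, n = 6), a difference of 0.35 ± 0.32 (SE, 95% interval -0.31 to 1.01, limma adjusted p = 0.919).

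miR-142-5p measured 5.49, 5.70, 6.23, 6.46 and 6.59 in exposed lungs on day 28, and a lowest, median and highest of 5.68, 5.89 and 6.21 in control lungs. The same 3 mice lay above the control range, and the same mouse lay below it. The arm averaged 6.09 ± 0.48 in exposed (SD, n = 5) and 5.94 ± 0.21 in control lungs (SD, n = 6), a difference of 0.15 ± 0.22 (SE, 95% interval -0.30 to 0.60, limma adjusted p = 0.985). On day 28 limma called 0% of the 172 miRNAs, and 13 (7.56%) had an unadjusted p under 0.05, neither arm among them.

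**Figure D2:**
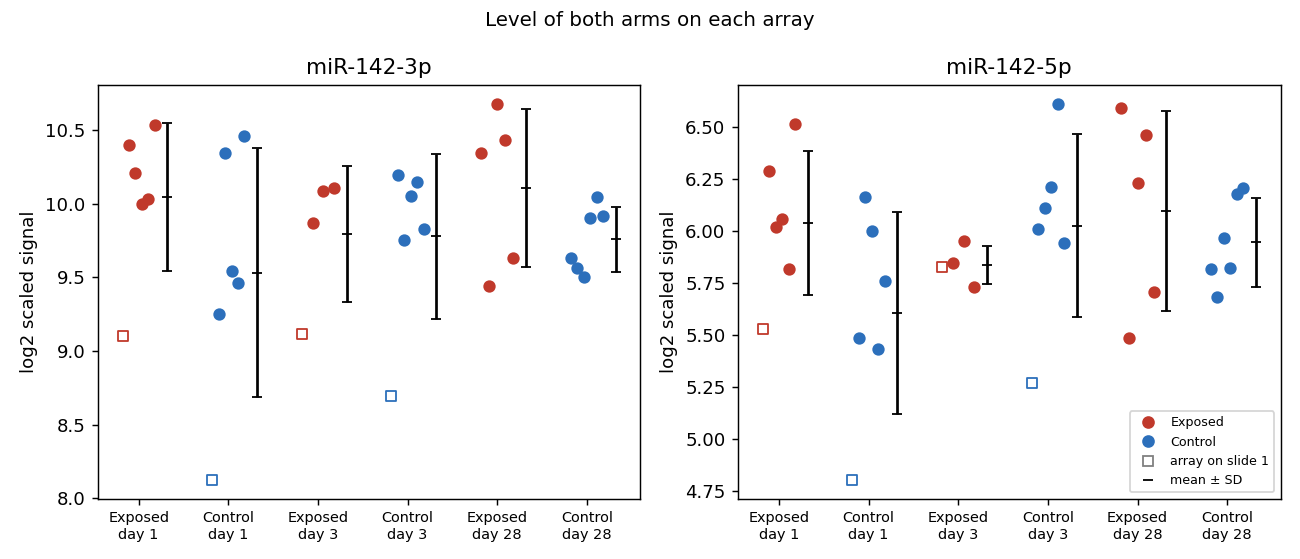
Log2 scaled signal of miR-142-3p (left) and miR-142-5p (right) on each of the 33 arrays by day, exposed in red beside control in blue, with open squares for the arrays of slide 1 and bars for the mean and SD of each group. The exposed and control groups overlap on each day. On this scaled signal the 5 exposed lungs of day 28 fall into 3 above the control range and 2 within or below it.

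Set beside the SD within groups, the order of the groups was not resolved for either arm. For miR-142-3p it ran, from the highest mean, exposed day 28, exposed day 1, exposed day 3, control day 3, control day 28 and control day 1. For miR-142-5p it ran exposed day 28, exposed day 1, control day 3, control day 28, exposed day 3 and control day 1. Every pair of neighbours differed by less than the larger of their SDs. The highest and lowest groups differed by 0.57 for 3p and 0.49 for 5p, against larger SDs of 0.85 and 0.48. These SDs describe single arrays and not the error of a group mean. The highest and lowest groups were not tested against each other.

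The spread within groups, which includes differences between slides, was wide for these miRNAs. The SD within groups was 0.56 for miR-142-3p and 0.38 for miR-142-5p, while the median over the 94 miRNAs above background on all arrays was 0.24. From the widest, the arms ranked 5 and 20 of those 94. For miR-142-3p the slide 1 array had 9.10 in exposed lungs of day 1, and the other 5 had 10.00 to 10.53. In control lungs of day 3 it had 8.69, and the other 5 had 9.76 to 10.20. The part of the slides in this spread was not tested.

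The change with exposure was also compared between days. For miR-142-5p the exposed minus control difference was 0.62 ± 0.32 lower on day 3 than on day 1 on the log2 scale (SE, limma adjusted p = 0.990, unadjusted p = 0.0614). For miR-142-3p the day 3 value was 0.50 ± 0.46 lower than that of day 1 (SE, limma adjusted p = 0.990). The differences of day 28 from day 1 were -0.17 ± 0.45 for 3p and -0.28 ± 0.31 for 5p (SE), and neither passed the test. Averaged over the 3 days, the exposed minus control difference was 0.29 ± 0.19 for 3p and 0.13 ± 0.13 for 5p (SE, limma adjusted p = 0.552 and 0.731). For this average limma called 0.581% of the 172 miRNAs, and neither arm was called.

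In control lungs both arms were lowest on day 1. miR-142-3p averaged 9.76 on day 28 and 9.53 on day 1, a difference of 0.23 ± 0.31 (SE, limma adjusted p = 0.649). miR-142-5p averaged 5.94 on day 28 and 5.61 on day 1, a difference of 0.34 ± 0.21 (SE, limma adjusted p = 0.300). Of the 172 miRNAs, 6.98% were called between these days, without either arm. Without the control day 1 array on slide 1 the miR-142-3p difference turned to -0.055. Control day 3 minus day 1 gave 0.25 ± 0.31 for 3p and 0.42 ± 0.21 for 5p (SE), not called, and this 3p difference turned to -0.035 without the same array.

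Each of the 15 exposed arrays shared its slide with a control array of its own day. On day 1, miR-142-3p was higher in the exposed array of 5 of 6 such pairs, by -0.14 to 1.15 on the log2 scale, and miR-142-5p likewise in 5 of 6, by -0.14 to 0.80. The exception for both was the pair on slide 4. On day 3, miR-142-3p was higher in 3 of 4 pairs (-0.33 to 0.42) and miR-142-5p in 1 of 4 (-0.21 to 0.55). On day 28 both arms were higher in 3 of 5 pairs, over -0.41 to 1.18 for 3p and -0.47 to 0.77 for 5p. The sign was the same for both arms in 13 of the 15 pairs, and the other two were of day 3.

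With slide as a fixed block, the day 1 differences were the same, 0.51 for 3p and 0.43 for 5p. This was fixed by the layout, because every slide with day 1 arrays held 1 exposed and 1 control array of that day. The limma adjusted p with that block was 0.151 for both arms, and the unadjusted limma p was 0.0196 for 3p and 0.0251 for 5p. The day 3 differences were 0.15 for 3p and -0.089 for 5p with that block, and those of day 28 were 0.34 for 3p and 0.13 for 5p. None passed the threshold after adjustment. Without the arrays of slide 1 the day 1 differences were 0.42 for 3p and 0.37 for 5p (limma adjusted p = 0.505 for both), and the day 3 difference of 5p was -0.33. Leaving out the control day 1 array of slide 1 alone, replicate 1, lowered the day 1 differences further, to 0.23 for 3p and 0.27 for 5p.

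**Figure D3:**
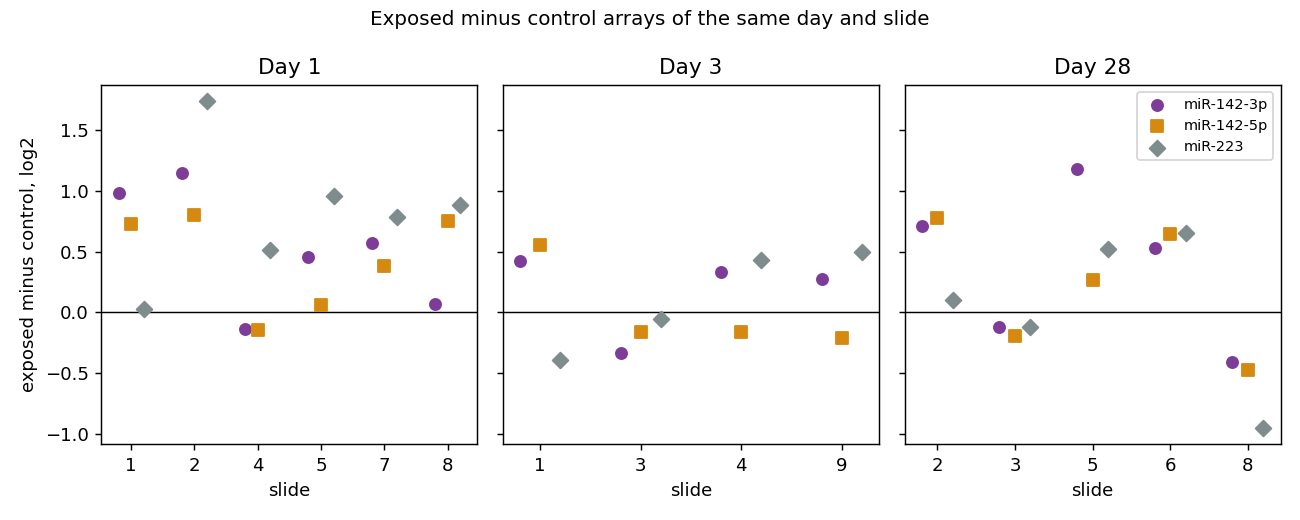
Difference in log2 scaled signal between the exposed and the control array of the same day and slide, for miR-142-3p, miR-142-5p and, beside them, miR-223, by day and slide. Both arms lie above 0 in 5 of 6 pairs on day 1, and on day 28 they lie above 0 in 3 of 5 pairs, on the same slides.

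The arms of 1 precursor were then set against each other within each array, where any factor applied to the whole array cancels. On day 1 the log2 difference 3p minus 5p had a lowest, median and highest value of 3.58, 4.07 and 4.21 in exposed lungs and of 3.32, 3.90 and 4.70 in control lungs. The exposed values lay inside the control range. The means were 4.01 ± 0.24 in exposed and 3.92 ± 0.49 in control lungs (SD, n = 6 each), a difference of 0.085 (two-sided exact permutation p = 0.714). Without the control array on slide 1 it was -0.036.

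On day 3 the difference between the arms was 3.29, 4.02, 4.14 and 4.38 in exposed lungs, against a lowest, median and highest of 3.42, 3.74 and 4.19 in control lungs. The lowest exposed value was that of slide 1, and the other 3 lay above the control median. The means were 3.96 ± 0.47 in exposed (SD, n = 4) and 3.75 ± 0.28 in control lungs (SD, n = 6), a difference of 0.20 (two-sided exact permutation p = 0.390). On day 28 it was 3.75, 3.93, 3.96, 3.97 and 4.45 in exposed lungs, against 3.54, 3.84 and 4.08 in control lungs. Of the exposed values, 1 lay above the control range. The means were 4.01 ± 0.26 in exposed (SD, n = 5) and 3.81 ± 0.18 in control lungs (SD, n = 6), a difference of 0.20 (two-sided exact permutation p = 0.190). Adjusted over the 3 days, the exact permutation p-values were 0.714, 0.586 and 0.571, so a change in the balance of the arms was not detected in the processed signal with these numbers of mice. An alternative chosen after seeing the data was a normexp background correction of the median signal, which adds an offset of 50 to every spot. Under it the exposed minus control difference in balance was 0.60 on day 1 and passed (exact permutation p adjusted over the 3 days = 0.0390). That of day 28 turned to -0.017. Before scaling, the processed signal over arrays was 16.2 to 168 for the brighter 5p probe and 167 to 2263 for the brighter 3p probe. The part of the offset in the balance was not tested.

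Across the 33 arrays the arms went up and down together, with a Pearson r of 0.82 and a Spearman rho of 0.74. These points share array, RNA extract and scaling factor, so the value is a description. With the group means taken out r was 0.82. Over all 4371 pairs of the 94 miRNAs above background on every array, the median r was 0.12 and the 95th percentile 0.81, and the pair of arms ranked 182. Without the slide 1 arrays r was 0.70 over 29 arrays, where the 95th percentile of all pairs was 0.64 and the pair of arms ranked 124. Without the 2 arrays farthest from the median of miR-142-3p, both of slide 1, it was 0.70 over 31. Within groups of 6 mice r was 0.92 in exposed lungs of day 1, 0.86 in control lungs of day 1, 0.87 in those of day 3 and 0.65 in those of day 28.

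**Figure D4:**
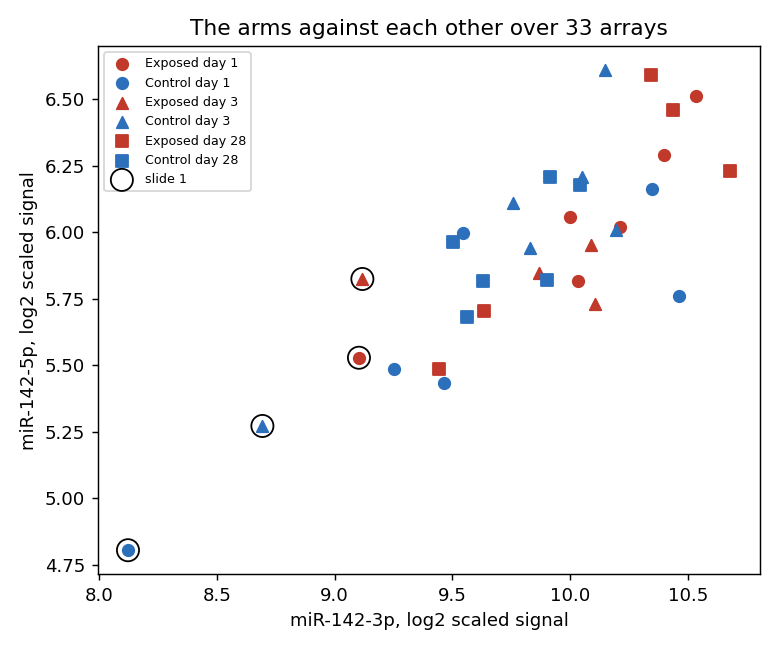
Log2 scaled signal of miR-142-5p against that of miR-142-3p on each of the 33 arrays, with exposed in red, control in blue, a marker shape for each day and rings around the 4 arrays of slide 1. The points rise together (r = 0.82), and the 4 ringed arrays hold the 4 lowest values of miR-142-3p.

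For each arm, the miRNA with the most similar pattern over the arrays, among the 94, was the other arm. After it came, for miR-142-3p, miR-30e (r = 0.78), miR-143 (0.72), miR-30c (0.72) and miR-30b (0.71). For miR-142-5p these were miR-141 (0.69), miR-30e (0.65), miR-143 (0.65) and miR-26a (0.61). miR-143 is a smooth muscle miRNA and miR-141 an epithelial one. With group means taken out, miR-30e, miR-30c, miR-143 and miR-30d followed the other arm for 3p (0.81, 0.77, 0.74 and 0.74), and miR-143, miR-141, miR-30e and miR-26a for 5p (0.67, 0.67, 0.66 and 0.62). The order rested in part on slide 1: without it, miR-1224 (0.71), miR-142-5p (0.70), miR-193 (0.65), miR-21 (0.58) and miR-200c (0.57) led for 3p. For 5p, miR-142-3p (0.70), miR-141 (0.53), miR-21 (0.44), miR-1224 (0.43) and miR-146a (0.41) led without it.

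Other miRNAs of blood cells were followed beside the arms, from a list of 13, of which 10 passed the filter on dim signals. limma called none of the 10 on any day (0 called, against 0% of all 172), and the difference was positive for 4 of 10 on day 1, 4 of 10 on day 3 and 6 of 10 on day 28. Over all 172 miRNAs it was positive for 34.9%, 37.8% and 43.6% on the 3 days. The median of these 10 was -0.041, -0.056 and 0.048 on the 3 days, against -0.097, -0.036 and -0.034 over all 172 miRNAs. miR-150, miR-181d and miR-342-5p were not tested, and miR-150, which marks mature lymphocytes, was above background on 1 of 5 exposed and 1 of 6 control arrays of day 28 and on none of the other days.

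miR-223, abundant in neutrophils and other myeloid cells, was the one of the 10 with the smallest p on day 1. Its lowest, median and highest log2 scaled signals were 8.07, 9.17 and 9.76 in exposed lungs and 8.03, 8.23 and 8.77 in control lungs. The groups overlapped at their lower ends. The difference was 0.82 ± 0.21 (SE, limma adjusted p = 0.0994), with the exposed array higher in 6 of 6 slide pairs. It was 0.20 on day 3 and 0.12 on day 28.

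miR-223 is the only neutrophil and macrophage marker listed, and its linear scaled signal was 269 to 869 in exposed and 261 to 438 in control lungs of day 1. Its exposed minus control difference, like that of each arm, had a larger estimate on day 1 than on days 3 and 28. For the arms these differences between days did not pass the test. Day 28 minus day 1 was -0.17 ± 0.45 for 3p and -0.28 ± 0.31 for 5p (SE). The part of miR-223 in the values of the arms was not tested. Over the 33 arrays the correlation with miR-223 was r = 0.34 for miR-142-3p and 0.25 for miR-142-5p. Without slide 1 these were 0.53 and 0.30.

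miR-155, induced in activated leukocytes, exceeded background on 4 of 6 exposed arrays of day 1 and on 0 of 6 control arrays. On day 3 this held for 0 of 4 exposed and 1 of 6 control arrays, and on day 28 for 4 of 5 exposed and 4 of 6 control arrays. The median 75th percentile of day 1 was 666 in exposed and 365 in control arrays, and its part in these counts was not tested. miR-155 differed by 0.93 ± 0.30 on day 1 (SE, limma adjusted p = 0.212), -0.19 on day 3 and 0.75 ± 0.31 on day 28 (SE, limma adjusted p = 0.570). miR-146a, which responds to inflammatory signalling, differed by -0.060 on day 1 and -0.075 on day 3, and by 0.48 ± 0.18 on day 28 (SE, limma adjusted p = 0.570). The linear sum of these 2 activation markers was 246 to 642 in exposed and 269 to 336 in control lungs of day 28, so that the exposed lungs spread widely here as for the arms. miR-146a made up most of this sum, with a median log2 scaled signal of 8.83 in those exposed lungs against 4.38 for miR-155.

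The lymphoid miR-342-3p differed by -0.28, -0.16 and 0.19 on the 3 days. miR-181a, miR-181b and miR-181c, of the lymphoid list too, differed by -0.24 to 0.092 over the 3 days. Summed over the 7 lymphoid markers, the linear signal was 150 to 204 in exposed and 159 to 200 in control lungs of day 1, and miR-342-5p was above background on no array.

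The red cell miRNAs varied in their likeness to the arms. Over the 33 arrays, r was 0.31 (3p) and 0.23 (5p) for miR-144, 0.16 and -0.11 for miR-486, and -0.29 and -0.42 for miR-451, all of them abundant in red cells. On day 3, miR-144, miR-451 and miR-486 differed by 0.46, 0.42 and 0.56, while on day 28 they differed by -0.25, -0.20 and -0.10, none called. Their linear sum was 5932 to 13119 in exposed and 4133 to 7544 in control lungs of day 3. The heart and skeletal muscle miRNAs, another tissue's markers, summed to 32.0 to 971 in exposed and 27.3 to 1019 in control lungs of day 1. They summed to 26.9 to 85.5 in exposed and 67.6 to 444 in control lungs of day 3, and to 27.7 to 77.0 in exposed and 33.9 to 255 in control lungs of day 28.

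**Figure D5:**
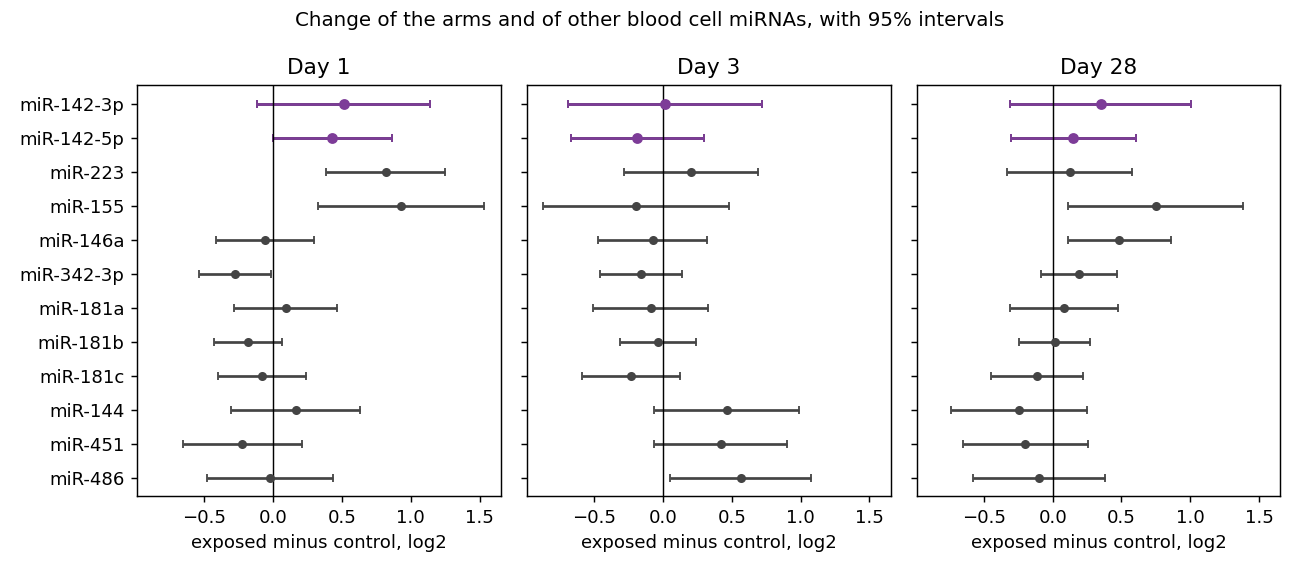
Exposed minus control difference in log2 scaled signal with its 95% limma interval on days 1, 3 and 28, for both miR-142 arms (purple) and the 10 tested blood cell miRNAs (grey). The intervals of both arms include 0 on each day, and on day 1 that of miR-142-5p runs from -0.0025 to 0.86.

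Scaling between arrays moved the values of the arms together with those of all miRNAs. With no scaling, the median difference of all miRNAs was 0.56 on day 1, -0.11 on day 3 and -0.65 on day 28. Each arm kept the distance from that median that it had with scaling. This follows by construction, because scaling shifts all log2 values of an array alike. Relative to that median, over 7 ways of processing the signal, miR-142-3p stood at 0.41 to 0.86 on day 1, at -0.022 to 0.11 on day 3 and at 0.045 to 0.48 on day 28. miR-142-5p stood at 0.25 to 0.53 on day 1, at -0.22 to -0.12 on day 3 and at 0.062 to 0.24 on day 28. The miR-142-5p difference of day 1 turned to -0.11 with a normexp background correction, under which the median of all miRNAs was -0.36. Array brightness differed between groups: the median of the 75th percentile was 666 in exposed and 365 in control lungs on day 1, 624.8 in exposed and 634.6 in control lungs on day 3, and 481 in exposed and 985 in control lungs on day 28. Over the 33 arrays its log2 correlated with the arms at r = -0.028 (3p) and 0.26 (5p), and with their difference at -0.37, and without slide 1 at -0.64. Its part in the balance of the arms was not tested.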

How the data were processed

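Per the labels' protocols, lung RNA carried Cy3 on 1-colour Agilent arrays. Per the file headers, the deposited intensity of each spot is linear, was extracted with Feature Extraction 10.7.3.1, and has its background subtracted in the processed signal. The authors also deposited log2 values in a table of the whole series. How these were made is not given, and they served only as an alternative.

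Control and outlier-flagged spots (2.30%) were left out and the spots of a probe averaged. Each array was scaled to equal 75th percentiles over the 156 probes detected on all 33 arrays, given a floor of 1 and put on the log2 scale. A miRNA took its brightest probe, and 172 detected on at least 4 arrays of a group were tested. Differences were fitted with limma 3.58.1 (R 4.3.3) over all 6 groups, with Benjamini-Hochberg adjustment over the 172 and a threshold of 0.05. The fit was tested on simulated data. The arms were compared by exact permutation (scipy 1.17.1), and the hairpin was folded with RNAfold 2.7.2. For a probe, detection meant that most unflagged spots were well above background. The number of arrays limits the precision.

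The named miRNAs were both arms, the 5 most correlated with each, and the tested members of a blood cell list. miR-1224, miR-193, miR-21 and miR-200c, from the likeness order without slide 1, were named after their values were seen. The members and lists were chosen with earlier results of these data known. Alternatives covered scaling, background, probes, filters, floor, slide, scan day and leaving out each array.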

Additional observations from a re-analysis of the deposited data

Results flagged for a closer look

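miR-142-3p on 2 arrays stood apart from the rest of its group. In exposed lungs of day 1, replicate 3 had a log2 scaled signal of 9.10, while the other 5 lay between 10.00 and 10.53. In control lungs of day 3, replicate 2 had 8.69, while the other 5 lay between 9.76 and 10.20. Both are arrays of slide 1. Among 18 groups of values examined these were the 2 that stood apart, where chance gives about 1 group in 20. The groups of values share arrays, so they are not independent.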

How the results depend on the processing

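Neither arm passed the threshold for exposed minus control on any day under any alternative. The following differences turned sign: 3p day 3 with no scaling (-0.057), the percentile over all probes (-0.025), quantile normalization (-0.046) and normexp (-0.011), 3p day 28 with no scaling (-0.27), 5p day 1 with normexp (-0.11), and 5p day 28 with no scaling (-0.46) and the percentile over all probes (-0.095). Control day 28 minus day 1 was called with no scaling (1.41 for 3p, 1.52 for 5p) and, for 5p, with the percentile over all probes (0.77) and in the other direction with normexp (-0.36), and 3p gave -0.055 without slide 1. Control day 3 minus day 1 for 5p was -0.090 with normexp. The day 28 minus day 1 difference of the exposure change was called with no scaling (-1.44 for 3p, -1.55 for 5p) and was 0.45 for 5p with normexp. Its day 28 minus day 3 value was -0.21 for 3p and -0.20 for 5p with no scaling, and day 3 minus day 1 was 0.0047 for 5p with normexp. With normexp the balance of the arms differed by 0.60 on day 1 (exact permutation p adjusted over the 3 days = 0.0390) and by -0.017 on day 28. The correlation of the arms was 0.92 with no scaling. The cause was not tested. Normexp, leaving out slide 1 and the scan day block were chosen after seeing the data. Normexp used an offset of 50 and the median signal, in place of the mean signal, which was not analysed here.

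The count of called miRNAs, 0 on each day, became on day 1 3 with the percentile over all probes and with total gene signal, 2 with the mean over probes, the random slide block and without slide 1, 1 among miRNAs detected on all arrays, 7 with no filter, 6 with no scaling and 4 with quantile normalization. On day 3 it was 1 without slide 1. On day 28 it was 1 with a floor of 10, no filter, normexp, quantile normalization and without slide 1. Leaving out 1 array gave 0 to 2 on day 1 (control day 1 replicate 13, control day 3 replicate 25, exposed day 1 replicate 3 or exposed day 28 replicate 12), 0 on day 3 and 0 to 4 on day 28 (exposed day 28 replicate 12).

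Leaving out each array gave, for 3p, 0.23 to 0.70 on day 1, -0.20 to 0.24 on day 3, 0.20 to 0.51 on day 28 and 0.20 to 0.37 for the mean. For 5p it gave 0.27 to 0.54, -0.34 to -0.070, 0.026 to 0.30 and 0.077 to 0.18. Control day 28 minus day 1 was -0.055 to 0.41 (3p) and 0.18 to 0.45 (5p), and control day 3 minus day 1 was -0.035 to 0.46 (3p) and 0.26 to 0.57 (5p). Of the exposure change, day 3 minus day 1 was -0.71 to -0.22 (3p) and -0.77 to -0.46 (5p), day 28 minus day 1 was -0.35 to 0.12 (3p) and -0.40 to -0.12 (5p), and day 28 minus day 3 was 0.11 to 0.55 (3p) and 0.21 to 0.49 (5p). The balance of the arms differed by -0.036 to 0.24, 0.063 to 0.42 and 0.089 to 0.26 on the 3 days. The lowest day 1 values of both arms, 0.23 and 0.27, were those without control day 1 replicate 1 (slide 1), and the 3p sign changes without it were those of both control contrasts and of the day 28 minus day 1 exposure change. No pairing by replicate number was possible, because these numbers are consecutive over all arrays and none occurs in more than 1 group. Arrays were paired only by slide, in the pairs and the slide block given with the results.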
